A study of Mus musculus with 12 samples.

Results

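The interferon response and MHC class I presentation genes described here are 43 genes, each found as 1 row by its symbol among the 55471 genes of the deposited table. They fall into 4 signalling factors, 16 antiviral effectors, 3 sensors of nucleic acids, 3 genes of the PARP9-DTX3L group, 8 interferon-induced GTPases, 8 genes of class I antigen presentation and 1 chemokine. They were measured by RNA sequencing of colonic crypts freed with EDTA from female mice of 8 weeks, with 1 library per mouse and 3 mice in each of 4 groups on a C57BL/6J background. All 43 passed the filter on low counts and were tested among 14610 genes.

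The groups combine a knock-in of CBP with a deletion of p53. CBPAA mice carry CBP, the transcriptional coactivator encoded by Crebbp, with phosphorylated serines replaced by alanines in every cell of the body, whereas CBPWT mice carry the normal protein. In p53ΔIEC mice, Villin-Cre deletes floxed Trp53 in the intestinal epithelium, and p53-floxed mice carry the floxed Trp53 alleles without Cre. The groups were CBPWT p53-floxed, CBPAA p53-floxed, CBPWT p53ΔIEC and CBPAA p53ΔIEC. In the paper the CBPWT mice served as littermate controls within each p53 state. The p53ΔIEC mice came from a further cross to Villin-Cre mice. The effect of p53 deletion therefore cannot be told apart from that of Cre or of the separate breeding. The comparisons ask what the CBP knock-in does to transcripts of crypts with and without p53, and what p53 deletion does in each CBP genotype. The study's methods name more than 1 source strain for the embryonic stem cells that carried the knock-in, which was then backcrossed to C57BL/6.

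Interferons are secreted proteins that act on neighbouring cells through the JAK-STAT pathway. Type I interferons (IFN-α and IFN-β) and type III interferons (IFN-λ) signal through a complex with STAT2 and IRF9 that binds the interferon-stimulated response element (ISRE) and drives antiviral genes, while type II interferon (IFN-γ), made by T cells and natural killer cells, acts through the gamma-activated site (GAS) and, by way of IRF1, drives guanylate binding proteins, immunity-related GTPases and the class I pathway. In the gut epithelium IFN-λ receptors are prominent, and a low, microbiota-dependent level of interferon-stimulated genes is a known feature. Class I molecules present peptides that the immunoproteasome cuts and the TAP transporter moves into the endoplasmic reticulum.

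The promoters of the 43 genes were read on both strands for the core letters of both elements. The ISRE core was taken as GAAA, any 2 bases and GAAA again (on the other strand TTTC, 2 bases and TTTC), and the GAS core as TTCNNNGAA. RefSeq windows on GRCm38.p6, 250 bases before to 50 bases after an annotated start, were found for 31 of the 43 genes. The ISRE core was present for 18 of these 31 genes (58.1%), against 3.99% of the 27025 genes with a window and 3.44% of all 32851 windows. The GAS core was present for 9 of the 31 (29.0%), against 9.55% of genes and 8.30% of windows. An ISRE core and a GAS core overlapped each other in the window of Bst2 alone, 5 genes held both motifs and 9 held neither. Each of the 6 GTPase genes with a window (Gbp2, Gbp3, Gbp7, Igtp, Irgm1 and Irgm2) held an ISRE core, as did 8 of 12 antiviral effectors, whereas of 6 class I genes B2m alone held an ISRE core and Psmb8 alone a GAS core. Of the 8 genes with an unadjusted p under 0.05 for CBPAA against CBPWT without p53, 5 had a window. An ISRE core was present in 2 of these 5, Isg15 and Oas1a, while Oasl2, Xaf1 and Irf9 held neither motif.

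The stretches that follow run from base -150 before the annotated start to base -1 (to -32 for Gbp2). They show genes chosen among those that hold these elements: GTPases, effectors with more than 1 ISRE core, B2m (the class I light chain) and Irf1. They are written 5′ to 3′ on the strand of the gene, and capitals mark every match of either motif. The positions are chr3:142620513-142620631 (plus strand) for Gbp2, chr3:142559894-142560043 (plus) for Gbp3, chr3:142530186-142530335 (plus) for Gbp7, chr11:58199406-58199555 (plus) for Igtp, chr11:58214827-58214976 (plus) for Irgm2, chr4:156200819-156200968 (minus) for Isg15, chr19:34640739-34640888 (plus) for Ifit1, chr5:120907526-120907675 (minus) for Oas1a, chr2:122147537-122147686 (plus) for B2m and chr11:53769864-53770013 (plus) for Irf1.
Gbp2: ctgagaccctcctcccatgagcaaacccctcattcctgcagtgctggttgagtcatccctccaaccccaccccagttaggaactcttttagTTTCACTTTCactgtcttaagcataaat
Gbp3: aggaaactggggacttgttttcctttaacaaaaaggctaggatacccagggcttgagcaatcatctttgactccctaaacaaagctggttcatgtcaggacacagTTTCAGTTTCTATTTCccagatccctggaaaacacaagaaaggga
Gbp7: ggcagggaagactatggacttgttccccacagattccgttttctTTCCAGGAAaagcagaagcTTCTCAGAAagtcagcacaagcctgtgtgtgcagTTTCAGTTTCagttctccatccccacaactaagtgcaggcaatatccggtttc
Igtp: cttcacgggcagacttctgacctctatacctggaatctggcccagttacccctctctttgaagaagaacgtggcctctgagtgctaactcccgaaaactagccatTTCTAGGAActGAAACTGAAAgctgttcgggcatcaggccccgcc
Irgm2: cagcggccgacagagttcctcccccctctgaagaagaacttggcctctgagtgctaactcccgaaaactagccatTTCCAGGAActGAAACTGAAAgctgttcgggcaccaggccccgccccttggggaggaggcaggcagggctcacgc
Isg15: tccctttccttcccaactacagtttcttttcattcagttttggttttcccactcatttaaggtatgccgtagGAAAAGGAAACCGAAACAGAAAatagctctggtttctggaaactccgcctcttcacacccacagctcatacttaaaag
Ifit1: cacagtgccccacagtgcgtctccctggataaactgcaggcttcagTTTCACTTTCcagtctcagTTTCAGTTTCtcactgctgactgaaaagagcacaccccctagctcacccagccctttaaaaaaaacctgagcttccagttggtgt
Oas1a: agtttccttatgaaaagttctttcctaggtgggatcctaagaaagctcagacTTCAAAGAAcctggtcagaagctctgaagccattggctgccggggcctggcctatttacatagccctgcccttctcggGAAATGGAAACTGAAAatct
B2m: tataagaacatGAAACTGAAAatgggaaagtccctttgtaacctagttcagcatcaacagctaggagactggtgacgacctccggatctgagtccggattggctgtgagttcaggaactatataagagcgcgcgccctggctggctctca
Irf1: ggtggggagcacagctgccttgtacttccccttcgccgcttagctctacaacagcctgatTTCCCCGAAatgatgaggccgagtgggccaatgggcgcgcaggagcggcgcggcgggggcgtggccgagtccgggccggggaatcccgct

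In Isg15 the 3 overlapping ISRE cores began at -78, -72 and -66, and in Ifit1 the cores began at -104 and -85. In the GTPases the core lay close to the start, at -59 in Gbp2, -45 and -39 in Gbp3, -53 in Gbp7, -34 in Igtp and -64 in Irgm2. Gbp7, Igtp and Irgm2 also held GAS cores, which began at -106 and -87, at -45 and at -75. Igtp and Irgm2, which encode GTPases of the same family and whose gene bounds overlap on chromosome 11, shared an unbroken run of 38 bases in these stretches, and reads from such related genes may not be told apart in full. In Oas1a, ISRE cores began at -20 and -14 and a GAS core at -98, in B2m the ISRE core began at -139, and the GAS core of Irf1 began at -90. A match of letters is a description of the sequence, not evidence that a factor was bound in these crypts.

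Per length, B2m was the most abundant of the 43 genes, with a mean TPM (transcript abundance scaled to gene length and library size) of 1130 over the 12 libraries. The heavy chain genes H2-K1 and H2-D1, which are not among the 43, had mean TPM of 756 and 758. Of 10 interferon genes listed, 7 had 0 reads in every library, and Ifnk, Ifnl2 and Ifng had 3, 1 and 1 reads over all libraries together. A count of 0 allows up to 3 reads, which is 0.166 to 0.280 CPM (counts scaled to library size after TMM normalisation) in these libraries, so interferon transcripts were not detectable in crypts at this depth beyond those single reads. Transcripts of the receptors were present, with mean TPM of 182 for Ifngr1, 110 for Ifngr2, 16.4 for Ifnar1, 12.4 for Ifnlr1 and 1.38 for Ifnar2.

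The libraries held between 11177430 and 18029125 counted reads. Trp53 had a mean TPM of 27.9 and 29.2 in CBPWT and CBPAA p53-floxed crypts and of 4.29 and 5.28 in CBPWT and CBPAA p53ΔIEC crypts, and no library went against its label. Epithelial markers were abundant, with 6 genes summing to between 7088 and 10319 TPM. Markers of other cells were low. The 10 T cell genes summed to 8.32 to 17.0 TPM in CBPWT p53-floxed, 11.1 to 21.3 in CBPAA p53-floxed, 9.64 to 19.1 in CBPWT p53ΔIEC and 10.4 to 31.5 in CBPAA p53ΔIEC crypts. In the same order, the 9 myeloid genes summed to 4.36 to 15.3, 11.2 to 24.8, 13.8 to 24.2 and 12.3 to 28.5 TPM. Among the myeloid genes, C1qa ranged from 0.440 to 20.2 TPM and S100a9 was at 0 in every library. Genes of the small intestine separated libraries within groups. The 8 genes of that list, among them the Paneth cell defensins Defa24 and Defa17 and the enzymes Sis and Lct, summed to 14906 TPM in CBPWT p53ΔIEC replicate 1 and 5297 in CBPAA p53ΔIEC replicate 3, against 658 to 3479 in the other 10 libraries. Those same libraries had the lowest sum of 6 proliferation genes in their groups, 181 against 387 and 376 TPM, and 136 against 307 and 307 TPM.

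The 43 genes varied more between mice of 1 group than genes in general. The median SD within groups was 0.43 on the log2 CPM scale for the 43 genes and 0.22 for all genes tested. CBPAA p53-floxed replicate 1 stood apart: it was the highest of the 12 libraries for 30 of the 43 genes, and the highest of its group for 39 of 43, where 30.8% of all genes tested were highest in that library. Its CPM was more than 2 times the mean of the other CBPAA p53-floxed mice for 17 of the 43 genes (39.5%), against 1.73% of all genes tested. CBPWT p53ΔIEC replicate 2 was at the other end, with the lowest value of the 12 libraries for 22 of the 43. In bulk crypts, fewer cells of a type and less RNA per cell cannot be told apart.

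**Figure D1:**
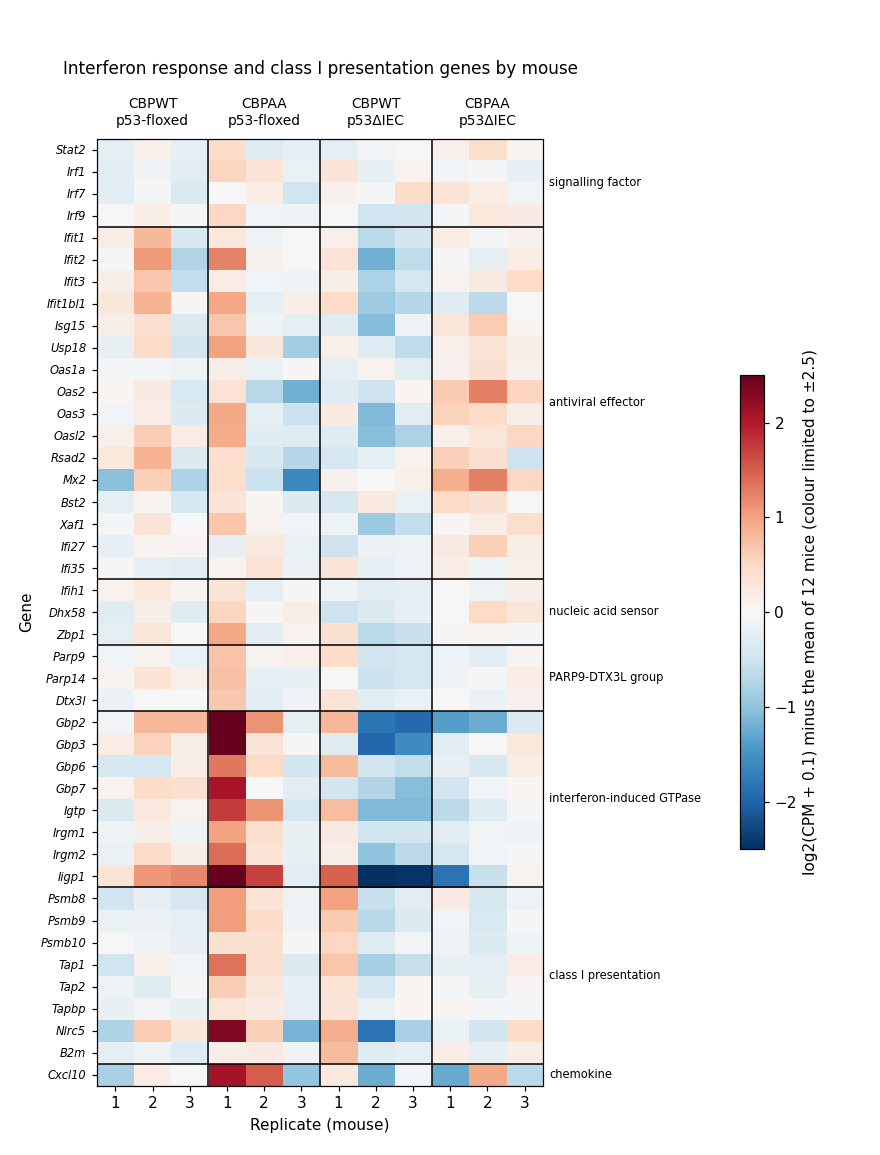
Heat map of the 43 genes (rows, by role) in the 12 mice (columns, 3 per group). Colour gives log2(CPM + 0.1) minus the mean of the 12 mice, limited to ±2.5. CBPAA p53-floxed replicate 1 is the highest library for 30 of the 43 genes, and the 8 GTPases form the block with its median deviation of 1.901.

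The cutoff for a call asked for an edgeR quasi-likelihood p below 0.05 after Benjamini-Hochberg adjustment together with an absolute log2 fold change over 0.5, and 0 of the 43 genes met it in any of the 7 comparisons made. Without the limit on fold change, 3.72% of all genes tested passed for p53 deletion in CBPWT crypts and 4.93% for p53 deletion averaged over the CBP genotypes, and again 0 of the 43. With the limit on fold change, the cutoff called 3.15% of all genes tested for p53 deletion in CBPWT crypts, 0.0274% for p53 deletion in CBPAA crypts, 0% for CBPAA against CBPWT with p53, 0.00684% for CBPAA against CBPWT without p53, 3.50% for p53 deletion averaged over the CBP genotypes, 0.00684% for CBPAA averaged over the p53 states and 0.00684% for the interaction of both. At an unadjusted p under 0.05 the counts of the 43 genes were 5, 9, 2, 8, 8, 6 and 5 in that order, against 20.9%, 12.6%, 8.04%, 3.57%, 21.9%, 2.57% and 10.3% of all genes. DESeq2 called 1 of the 43 for p53 deletion in CBPWT crypts (Oasl2) and 2 for p53 deletion averaged over the genotypes (Gbp2 and Gbp3). Over all genes, DESeq2 called 865 and 758 in these comparisons. The values that follow are therefore given as levels and differences, with the standard error (SE) of the fold change and the adjusted p of edgeR, and not as changes that passed a test.

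None of the 4 signalling factors passed the cutoff. Irf1 encodes the transcription factor that relays IFN-γ to class I and GTPase genes, and it was measured at 145, 163 and 145 CPM in CBPWT p53-floxed, 252, 222 and 154.1 in CBPAA p53-floxed, 218, 153 and 185 in CBPWT p53ΔIEC and 166, 169 and 149.9 in CBPAA p53ΔIEC. The values of CBPAA p53-floxed crypts overlapped those of the CBPWT p53-floxed group in replicate 3 only, and the log2 fold change between these groups was 0.47 (SE 0.17, adjusted p = 0.618). After p53 deletion the difference between CBP genotypes had the opposite sign, with an interaction of -0.67 (SE 0.24, adjusted p = 0.482) on the log2 scale.

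Irf9, the DNA-binding partner of STAT2, was measured at 47.0, 52.1 and 45.7 CPM in CBPWT p53-floxed, 67.1, 44.4 and 43.8 in CBPAA p53-floxed, 46.3, 33.0 and 34.0 in CBPWT p53ΔIEC and 45.9, 56.0 and 53.8 in CBPAA p53ΔIEC. The lowest values were those of CBPWT p53ΔIEC replicates 2 and 3, and the log2 fold change of CBPAA against CBPWT without p53 was 0.46 (SE 0.17, adjusted p = 0.985). Stat2 was measured at 39.3, 49.8 and 39.9 CPM in CBPWT p53-floxed, 62.7, 37.1 and 39.8 in CBPAA p53-floxed, 39.1, 43.5 and 46.2 in CBPWT p53ΔIEC and 49.9, 61.8 and 47.9 in CBPAA p53ΔIEC. Its 3 values in CBPAA p53ΔIEC lay above the 3 in CBPWT p53ΔIEC, by a log2 fold change of 0.31 (SE 0.18), which was 0.19 without CBPAA p53ΔIEC replicate 2. Irf7, which amplifies type I interferon responses, was measured at 101, 118 and 93.6 CPM in CBPWT p53-floxed, 119, 136 and 85.2 in CBPAA p53-floxed, 129, 117 and 164 in CBPWT p53ΔIEC and 152, 137 and 115 in CBPAA p53ΔIEC. Its level averaged over the CBP genotypes was higher without p53 by a log2 value of 0.32 (SE 0.13, adjusted p = 0.163), and the groups overlapped.

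**Figure D2:**
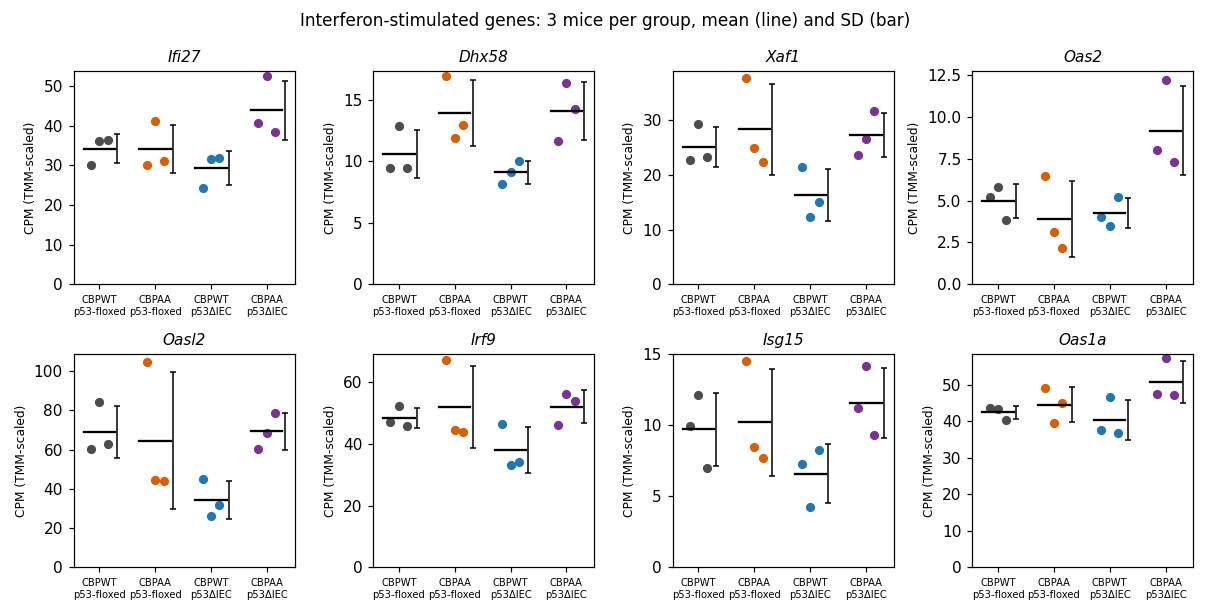
CPM (vertical axes, from 0) of the 8 genes with an unadjusted p under 0.05 for CBPAA against CBPWT without p53. Points are mice, lines are group means and bars are SDs of 3 mice. For 7 of the 8 the 3 CBPAA p53ΔIEC mice lie above the 3 CBPWT p53ΔIEC mice, and Irf9 overlaps by 1 mouse.

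Among antiviral effectors, values were higher in CBPAA than in CBPWT crypts once p53 was deleted, though none passed the cutoff. Of the 16, 15 were above 0 for CBPAA p53ΔIEC against CBPWT p53ΔIEC, with a median log2 fold change of 0.53, where 47.7% of all genes tested were higher and the median of all genes was -0.01. With p53 present, 8 of the 16 were higher in CBPAA and their median was 0.03. Over all 43 genes, 8 had an unadjusted p under 0.05 in the direction of higher levels in CBPAA p53ΔIEC (1.81% of all genes tested) and 0 in the direction of lower levels (1.76%), and 11 had groups that did not overlap, all higher, against 4.76% of all genes higher and 4.50% lower without overlap. These 11 were Stat2, Isg15, Usp18, Oas1a, Oas2, Oasl2, Mx2, Xaf1, Ifi27, Dhx58 and Gbp3. The smallest adjusted p among the 43 was 0.985 in edgeR, so none passed.

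Oas2 encodes an oligoadenylate synthetase, an enzyme that senses double-stranded RNA and activates RNase L. It was measured at 5.21, 5.84 and 3.83 CPM in CBPWT p53-floxed, 6.49, 3.10 and 2.14 in CBPAA p53-floxed, 4.01, 3.49 and 5.22 in CBPWT p53ΔIEC and 8.01, 12.2 and 7.32 in CBPAA p53ΔIEC. The 3 CBPAA p53ΔIEC mice had the highest values of all 12, above every other library. The log2 fold change of CBPAA against CBPWT without p53 was 1.11 (SE 0.35, adjusted p = 0.985), that of p53 deletion in CBPAA crypts was 1.23 (SE 0.35, adjusted p = 0.320), and the interaction was 1.45 (SE 0.50, adjusted p = 0.482). The first 2 comparisons share the CBPAA p53ΔIEC libraries. Without the CBPAA p53-floxed replicate 1 library, p53 deletion in CBPAA crypts gave a log2 fold change of 1.79 (adjusted p = 0.284), and with both libraries highest in small intestine genes left out it gave 1.36 (adjusted p = 0.0431), a call that the full set of libraries did not make. The fit without both libraries called 1205 of 14844 genes tested, against 4 of 14610 in the main fit.

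Oasl2, an oligoadenylate synthetase-like protein, was measured at 60.1, 84.1 and 62.6 CPM in CBPWT p53-floxed, 105, 44.5 and 44.2 in CBPAA p53-floxed, 44.9, 26.2 and 31.7 in CBPWT p53ΔIEC and 60.5, 68.4 and 78.8 in CBPAA p53ΔIEC. Every CBPWT p53ΔIEC value lay below every CBPWT p53-floxed and every CBPAA p53ΔIEC value. The log2 fold change for p53 deletion in CBPWT crypts was -1.01 (SE 0.33, adjusted p = 0.117), and for CBPAA against CBPWT without p53 it was 1.02 (SE 0.33, adjusted p = 0.985). Both comparisons use the same CBPWT p53ΔIEC libraries. The first passed the cutoff in DESeq2 (adjusted p = 0.0151), and without CBPAA p53-floxed replicate 1, which is not part of the comparison but enters the shared spread, it passed in edgeR (adjusted p = 0.0359). That edgeR fit called 352 of 14936 genes tested, against 460 of 14610 in the main fit, and DESeq2 called 865 genes.

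Xaf1, an interferon-induced binding partner of the apoptosis inhibitor XIAP, lies on chromosome 11 of GRCm38 at 72301629 to 72313733, 2.71 Mb from Trp53. It was measured at 22.8, 29.4 and 23.3 CPM in CBPWT p53-floxed, 37.8, 24.9 and 22.3 in CBPAA p53-floxed, 21.5, 12.3 and 15.1 in CBPWT p53ΔIEC and 23.7, 26.6 and 31.7 in CBPAA p53ΔIEC. The CBPWT p53ΔIEC values were again below those of CBPWT p53-floxed and of CBPAA p53ΔIEC crypts. The log2 fold changes were -0.64 (SE 0.23, adjusted p = 0.135) for p53 deletion in CBPWT crypts and 0.75 (SE 0.23, adjusted p = 0.985) for CBPAA against CBPWT without p53. Without CBPWT p53ΔIEC replicate 1 the first was -0.88 (adjusted p = 0.0339), and with the small intestine gene level as a covariate it was -0.78 (adjusted p = 0.0326), both past the cutoff. Those fits called 906 of 14953 and 1266 of 14610 genes tested, against 460 of 14610 in the main fit.

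Isg15, a ubiquitin-like modifier whose promoter carries the 3 tandem ISRE cores shown, was measured at 9.97, 12.1 and 7.00 CPM in CBPWT p53-floxed, 14.5, 8.44 and 7.67 in CBPAA p53-floxed, 7.28, 4.25 and 8.23 in CBPWT p53ΔIEC and 11.2, 14.2 and 9.32 in CBPAA p53ΔIEC. The log2 fold change of CBPAA against CBPWT without p53 was 0.82 (SE 0.31, adjusted p = 0.985). Ifi27, a small interferon-inducible membrane protein, was measured at 30.2, 36.1 and 36.5 CPM in CBPWT p53-floxed, 30.1, 41.2 and 31.1 in CBPAA p53-floxed, 24.4, 31.6 and 31.995 in CBPWT p53ΔIEC and 40.8, 52.5 and 38.4 in CBPAA p53ΔIEC. Its log2 fold change in the same comparison was 0.58 (SE 0.16, adjusted p = 0.985). In both genes the CBPWT p53ΔIEC and CBPAA p53ΔIEC groups did not overlap, whereas the p53-floxed groups did.

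The other effectors followed with smaller or more variable values. Oas1a had a log2 difference of 0.33 (SE 0.12, adjusted p = 0.985) in that comparison. Mx2, a dynamin-like GTPase with antiviral activity, was at most 2.61 CPM in any library, and its values in CBPAA p53ΔIEC (2.02, 2.61 and 1.52 CPM) lay above those of the other CBPAA group (1.43, 0.676 and 0.267 CPM). Its log2 fold change for p53 deletion in CBPAA crypts was 1.34 (SE 0.51, adjusted p = 0.349). The tetratricopeptide genes Ifit1, Ifit2 and Ifit3, the relative Ifit1bl1, and Rsad2, Usp18, Oas3, Bst2 and Ifi35 had log2 fold changes between -0.07 and 0.74 for CBPAA against CBPWT without p53, with unadjusted p of 0.0661 or more.

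The 3 sensors of nucleic acids were also above 0 for CBPAA against CBPWT without p53. Dhx58 encodes LGP2, a regulator of RNA sensing, and was measured at 9.43, 12.9 and 9.44 CPM in CBPWT p53-floxed, 16.9, 11.9 and 12.9 in CBPAA p53-floxed, 8.12, 9.13 and 10.0 in CBPWT p53ΔIEC and 11.63, 16.4 and 14.2 in CBPAA p53ΔIEC. CBPAA values lay above CBPWT values in both p53 states on average, with log2 fold changes of 0.39 (SE 0.19) with p53 and 0.63 (SE 0.19) without p53, and of 0.51 (SE 0.13, adjusted p = 1.00) averaged over both, the smallest unadjusted p of any of the 43 genes in any comparison. It was higher in CBPAA than the CBPWT p53ΔIEC range in all 3 CBPAA p53ΔIEC mice, and 1 CBPWT p53-floxed mouse overlapped the CBPAA p53-floxed range. An antisense gene, Dhx58os, overlaps Dhx58. In all, 24 of the 43 genes are overlapped by another gene, 18 of them on the opposite strand, and the strand setting used in counting is not given in the sources used here.

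Ifih1, which encodes the RNA sensor MDA5, was measured at 70.9, 80.6 and 70.2 CPM in CBPWT p53-floxed, 85.0, 57.3 and 68.8 in CBPAA p53-floxed, 62.2, 55.0 and 57.6 in CBPWT p53ΔIEC and 67.6, 61.0 and 74.7 in CBPAA p53ΔIEC. The CBPWT p53ΔIEC values lay below all CBPWT p53-floxed values, by a log2 value of -0.34 (SE 0.13, adjusted p = 0.166). Zbp1, a sensor of Z-form nucleic acid that can trigger necroptosis, was measured at 16.1, 23.8 and 19.4 CPM in CBPWT p53-floxed, 37.5, 15.6 and 20.2 in CBPAA p53-floxed, 25.1, 11.9 and 13.0 in CBPWT p53ΔIEC and 19.5, 19.9 and 18.7 in CBPAA p53ΔIEC. Its largest value was that of CBPAA p53-floxed replicate 1, and its log2 fold change for p53 deletion averaged over the genotypes was -0.30 (SE 0.23), and -0.07 without that library.

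PARP9, DTX3L and PARP14 act in ADP-ribosylation linked to interferon signalling and DNA damage. Parp9 and Dtx3l share a promoter region on chromosome 16, on opposite strands, and their gene bounds overlap. Parp14 was measured at 84.1, 102 and 87.2 CPM in CBPWT p53-floxed, 134, 70.0 and 70.7 in CBPAA p53-floxed, 80.8, 55.6 and 59.6 in CBPWT p53ΔIEC and 76.1, 78.3 and 91.2 in CBPAA p53ΔIEC. Its log2 fold change for p53 deletion in CBPWT crypts was -0.48 (SE 0.23, adjusted p = 0.253), and these groups did not overlap. Parp9 was measured at 62.9, 70.0 and 59.0 CPM in CBPWT p53-floxed, 108, 69.1 and 72.3 in CBPAA p53-floxed, 91.1, 48.1 and 48.8 in CBPWT p53ΔIEC and 60.2, 53.9 and 68.7 in CBPAA p53ΔIEC. Its CBPAA p53ΔIEC values lay below its CBPAA p53-floxed values, by a log2 value of -0.45 (SE 0.24, adjusted p = 0.443). This value was -0.21 without CBPAA p53-floxed replicate 1, and in TPM the groups overlapped, with a lowest CBPAA p53-floxed value of 32.2 and a highest CBPAA p53ΔIEC value of 35.9. Dtx3l was measured at 66.2, 73.5 and 72.5 CPM in CBPWT p53-floxed, 116, 59.7 and 68.9 in CBPAA p53-floxed, 90.8, 60.0 and 65.0 in CBPWT p53ΔIEC and 73.5, 65.9 and 78.05 in CBPAA p53ΔIEC. Its difference between CBP genotypes with p53 was 0.20 on the log2 scale and turned to -0.14 without CBPAA p53-floxed replicate 1.

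The interferon-induced GTPases had large differences between mice, and 1 mouse carried many of them. These proteins attack the vacuoles of intracellular pathogens and are hallmarks of IFN-γ exposure. Gbp2 was measured at 14.8, 28.01 and 27.9 CPM in CBPWT p53-floxed, 174, 34.0 and 13.1 in CBPAA p53-floxed, 27.8, 4.31 and 4.02 in CBPWT p53ΔIEC and 5.92, 6.59 and 12.2 in CBPAA p53ΔIEC. CBPAA p53-floxed replicate 1 had 7.37 times the mean of the other mice of its group, and the next highest library stood at 34.0 CPM. The p53ΔIEC values were at most 12.2 CPM outside CBPWT p53ΔIEC replicate 1.

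The log2 fold change of Gbp2 for p53 deletion in CBPAA crypts was -3.16 (SE 1.10, adjusted p = 0.348). The groups did not overlap in CPM but did in TPM, where the lowest CBPAA p53-floxed value was 11.3 and the highest CBPAA p53ΔIEC value 12.4. Without CBPAA p53-floxed replicate 1 it was -1.53 (adjusted p = 0.454). Averaged over the CBP genotypes it was -2.09 (SE 0.76, adjusted p = 0.160) in edgeR, with an adjusted p of 0.0392 in DESeq2. Without CBPWT p53ΔIEC replicate 1, which was high in small intestine genes, the averaged value was -2.83 (adjusted p = 0.0496), past the cutoff in edgeR. That fit called 1073 of 14953 genes tested for this comparison, against 511 of 14610 in the main fit, and DESeq2 called 758 genes.

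Gbp3, the neighbour of Gbp2 and Gbp7 on chromosome 3, was measured at 5.66, 7.49 and 5.61 CPM in CBPWT p53-floxed, 29.2, 6.19 and 5.08 in CBPAA p53-floxed, 4.01, 1.20 and 1.61 in CBPWT p53ΔIEC and 4.11, 5.00 and 5.94 in CBPAA p53ΔIEC. The lowest values were those of CBPWT p53ΔIEC, which lay below every other group, and the highest was again that of CBPAA p53-floxed replicate 1, 29.2 against at most 7.49 CPM. The log2 fold change for p53 deletion was -1.51 (SE 0.68, adjusted p = 0.237) in CBPWT crypts and -1.47 (SE 0.46, adjusted p = 0.0981) averaged over the CBP genotypes, the smallest adjusted p of any of the 43 genes in edgeR. In DESeq2, which called 758 genes in this comparison, the averaged value had an adjusted p of 0.0399. The averaged log2 fold change in edgeR was -0.84 (adjusted p = 0.109) without CBPAA p53-floxed replicate 1.

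Gbp7 was measured at 9.70, 12.6 and 12.0 CPM in CBPWT p53-floxed, 38.1, 9.18 and 7.49 in CBPAA p53-floxed, 6.63, 5.45 and 4.28 in CBPWT p53ΔIEC and 6.48, 8.62 and 9.46 in CBPAA p53ΔIEC. The CBPWT p53ΔIEC values were all below the CBPWT p53-floxed values, by a log2 value of -1.08 (SE 0.53, adjusted p = 0.279), and averaged over the genotypes it was -1.12 (SE 0.37, adjusted p = 0.118), or -0.55 without CBPAA p53-floxed replicate 1. Without CBPAA p53-floxed replicate 1 the fold change of Gbp7 in CBPWT crypts hardly moved (-1.08) but its standard error went from 0.53 to 0.21 and its adjusted p to 0.0359, past the cutoff. The same held for Gbp3 in CBPWT crypts, with a standard error of 0.36 and an adjusted p of 0.0493 without that library. In CBPWT crypts that fit called 352 of 14936 genes tested, against 460 of 14610 in the main fit.

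The immunity-related GTPases had the same mice at both ends of their range. Irgm2 was measured at 36.9, 57.9 and 46.5 CPM in CBPWT p53-floxed, 109.4, 52.3 and 36.2 in CBPAA p53-floxed, 46.3, 20.5 and 26.2 in CBPWT p53ΔIEC and 30.3, 39.5 and 40.6 in CBPAA p53ΔIEC. Irgm1 was measured at 79.4, 94.8 and 81.0 CPM in CBPWT p53-floxed, 172, 113 and 75.9 in CBPAA p53-floxed, 101, 60.9 and 62.2 in CBPWT p53ΔIEC and 71.2, 82.0 and 79.6 in CBPAA p53ΔIEC. Their log2 fold changes for p53 deletion averaged over the CBP genotypes were -0.73 (SE 0.29, adjusted p = 0.179) for Irgm2 and -0.41 (SE 0.18, adjusted p = 0.219) for Irgm1, and without CBPAA p53-floxed replicate 1 they were -0.44 and -0.24. CBPAA p53-floxed replicate 1 had the highest value of both, and CBPWT p53ΔIEC replicates 2 and 3 the lowest values.

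Iigp1 spanned a wide range, from 0.507 CPM in CBPWT p53ΔIEC replicate 2 (8 reads) to 89.7 CPM in CBPAA p53-floxed replicate 1 (1188 reads). Within the CBPWT p53ΔIEC group its values were 26.6, 0.507 and 1.67 CPM. Its log2 fold change for p53 deletion averaged over the CBP genotypes was -1.88 (SE 0.91, adjusted p = 0.268) with all libraries and -3.42 (adjusted p = 0.0312) without CBPWT p53ΔIEC replicate 1, past the cutoff. The fit without that library called 1073 of 14953 genes tested, against 511 of 14610 in the main fit. Igtp and Gbp6, the remaining GTPases, had log2 fold changes of -0.80 and -0.27 for p53 deletion averaged over the genotypes, and -0.55 and -0.00118 without CBPAA p53-floxed replicate 1.

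**Figure D3:**
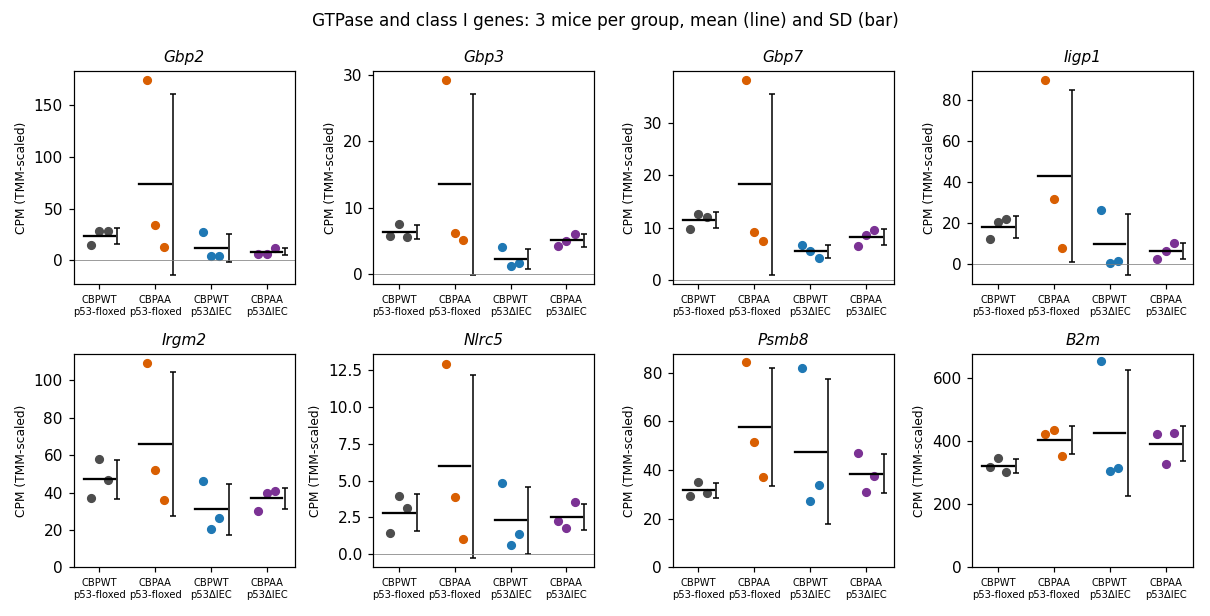
CPM (vertical axes) of 5 GTPase genes and 3 class I genes in 3 mice per group (points), with group means (lines) and SDs (bars). CBPAA p53-floxed replicate 1 is the highest point for every GTPase shown, for Nlrc5 and for Psmb8, while B2m is highest in CBPWT p53ΔIEC replicate 1 at 656 CPM.

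As a group, the 8 GTPases were all lower without p53 in CBPAA crypts (median log2 fold change -1.27), and 7 of 8 were lower without p53 in CBPWT crypts (median -0.81), where the medians of all genes tested were 0.01 and 0.01. Without CBPAA p53-floxed replicate 1 the CBPAA median was -0.28, with all 8 still below 0, and the CBPWT median was -0.80. Without CBPWT p53ΔIEC replicate 1 the CBPWT median was -1.19 with 8 of 8 below 0. With p53, all 8 were higher in CBPAA than in CBPWT crypts (median 0.95), but without replicate 1 of CBPAA p53-floxed 5 of 8 were higher and the median was 0.07. Proliferation genes moved opposite to these values within the CBPWT p53ΔIEC group: the mice with low GTPase levels, replicates 2 and 3, had the high proliferation sums, 387 and 376 TPM. Across CBPAA p53-floxed mice they lay the other way, since replicate 1, highest in the GTPases, also had the highest proliferation sum, 163 against 113 and 126 TPM. The part of proliferation in these values was not tested.

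**Figure D4:**
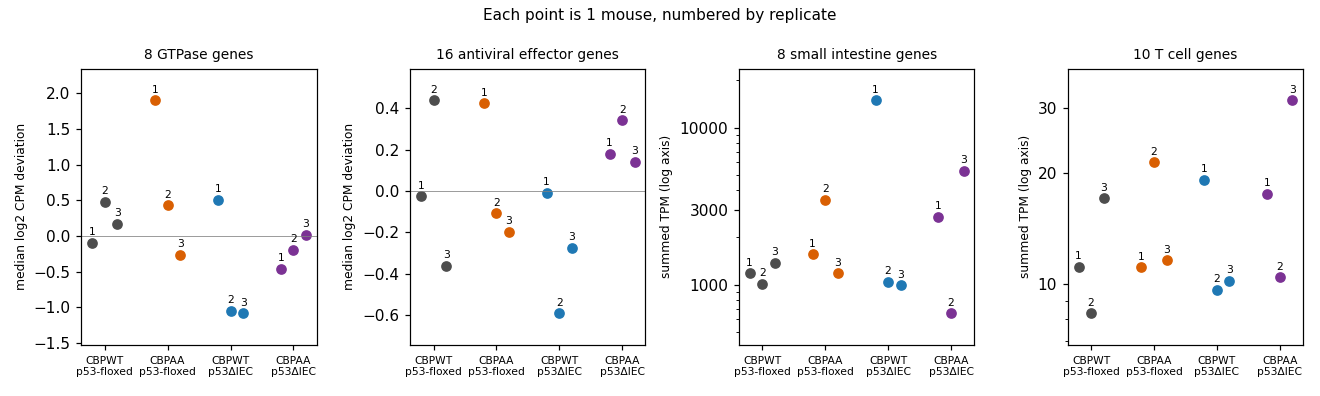
Each point is 1 mouse, numbered by replicate. The left panels give the median log2 CPM deviation from the mean of 12 mice of the 8 GTPases and the 16 antiviral effectors, and the right panels the summed TPM of 8 small intestine and 10 T cell genes on log axes. CBPAA p53-floxed replicate 1 lies at 1.901 for the GTPases and 0.42 for the effectors with 11.1 TPM of T cell genes, and CBPWT p53ΔIEC replicates 2 and 3 lie at -1.05 and -1.08 for the GTPases.

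Class I presentation genes had their highest values in 2 mice of different groups. The immunoproteasome subunits Psmb8, Psmb9 and Psmb10 replace constitutive subunits of the proteasome under interferon, Tap1 and Tap2 form the peptide transporter, Tapbp (tapasin) bridges it to class I molecules, and Nlrc5 is the transactivator of class I genes. Psmb8, Psmb9, Tap1, Tap2 and Tapbp lie together in the MHC on chromosome 17, where Psmb9 and Tap1 overlap on opposite strands. With p53, all 8 class I genes were higher in CBPAA than in CBPWT crypts, with a median log2 fold change of 0.58, and Psmb8, Psmb9 and B2m had groups that did not overlap in CPM (9.75% of all genes tested were higher and 9.62% lower without overlap). In the absence of CBPAA p53-floxed replicate 1, 7 of 8 were higher and the median was 0.25. On the TPM scale no class I gene had groups that did not overlap in this comparison.

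Psmb8 was measured at 29.4, 35.2 and 30.4 CPM in CBPWT p53-floxed, 84.3, 51.3 and 37.2 in CBPAA p53-floxed, 81.7, 27.2 and 33.8 in CBPWT p53ΔIEC and 47.1, 31.0 and 37.4 in CBPAA p53ΔIEC. Psmb9 was measured at 15.3, 15.4 and 14.7 CPM in CBPWT p53-floxed, 35.3, 23.9 and 15.9 in CBPAA p53-floxed, 27.1, 10.52 and 13.6 in CBPWT p53ΔIEC and 16.2, 13.2 and 16.6 in CBPAA p53ΔIEC. In both, CBPAA p53-floxed replicates 1 and 2 and CBPWT p53ΔIEC replicate 1 were the highest of the 12 libraries. The log2 fold changes for CBPAA against CBPWT with p53 were 0.86 (SE 0.41, adjusted p = 0.618) for Psmb8 and 0.73 (SE 0.33, adjusted p = 0.618) for Psmb9, and without CBPAA p53-floxed replicate 1 they were 0.49 and 0.40. Of these high libraries, replicate 2 of CBPAA p53-floxed and replicate 1 of CBPWT p53ΔIEC were also high in small intestine genes, with sums of 3479 and 14906 TPM. Replicate 1 of CBPAA p53-floxed had 1558 TPM, close to the 1015 to 1370 TPM of the CBPWT p53-floxed group. CBPAA p53ΔIEC replicate 3, with 5297 TPM of small intestine genes, had 37.4 CPM of Psmb8 and 16.6 CPM of Psmb9. The part of small intestine tissue in these values was not tested.

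Psmb10 was measured at 130.97, 121 and 114 CPM in CBPWT p53-floxed, 170.1, 169 and 125 in CBPAA p53-floxed, 185, 104 and 124 in CBPWT p53ΔIEC and 123, 102 and 121 in CBPAA p53ΔIEC. Its log2 fold change for p53 deletion was 0.18 (SE 0.19) in CBPWT and -0.42 (SE 0.19) in CBPAA crypts, an interaction of -0.60 (SE 0.26, adjusted p = 0.482). Tap2 was measured at 32.5, 28.8 and 35.2 CPM in CBPWT p53-floxed, 55.1, 43.7 and 30.9 in CBPAA p53-floxed, 45.3, 26.2 and 37.1 in CBPWT p53ΔIEC and 34.8, 31.6 and 36.3 in CBPAA p53ΔIEC. Tapbp was measured at 176, 191 and 175 CPM in CBPWT p53-floxed, 248, 229 and 167 in CBPAA p53-floxed, 249, 178 and 207 in CBPWT p53ΔIEC and 207, 193 and 194 in CBPAA p53ΔIEC. Their log2 fold changes for CBPAA against CBPWT with p53 were 0.43 (SE 0.21, adjusted p = 0.618) and 0.25 (SE 0.15, adjusted p = 0.649), or 0.22 and 0.14 without CBPAA p53-floxed replicate 1, and in each the groups overlapped.

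B2m, the light chain of class I molecules, was measured at 319, 346 and 303 CPM in CBPWT p53-floxed, 424, 437 and 354 in CBPAA p53-floxed, 656, 305 and 317 in CBPWT p53ΔIEC and 425, 329 and 426 in CBPAA p53ΔIEC. The 3 CBPAA p53-floxed mice lay above the 3 CBPWT p53-floxed mice, by a log2 value of 0.33 (SE 0.24, adjusted p = 0.702). The highest value of all was that of CBPWT p53ΔIEC replicate 1, at 656 CPM against 305 and 317 CPM in the other mice of its group. Nlrc5 was low, at most 4.86 CPM outside CBPAA p53-floxed replicate 1, where it was 12.9 CPM. Tap1 ranged from 21.8 to 99.2 CPM, with the highest value in the same mouse.

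For p53 deletion in CBPAA crypts, all 8 class I genes were lower, with a median log2 fold change of -0.50 and, without CBPAA p53-floxed replicate 1, of -0.13. In CBPWT crypts 7 of 8 were higher, with a median of 0.17, and without CBPWT p53ΔIEC replicate 1, 1 of 8 was higher and the median was -0.08. The direction in CBPWT crypts thus rested on that library, which also had the highest T cell and myeloid sums of its group, 19.1 against 9.64 and 10.2 TPM and 24.2 against 13.8 and 20.3 TPM, whose part was not tested, and most of the size in CBPAA crypts on replicate 1 of CBPAA p53-floxed.

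Cxcl10, the IFN-γ inducible chemokine that draws T cells, was measured at 0.808, 1.71 and 1.4995 CPM in CBPWT p53-floxed, 6.57, 4.45 and 0.713 in CBPAA p53-floxed, 1.77, 0.570 and 1.41 in CBPWT p53ΔIEC and 0.557, 2.97 and 0.898 in CBPAA p53ΔIEC. It was highest in CBPAA p53-floxed replicates 1 and 2, and replicate 3 of that group lay below every CBPWT p53-floxed mouse. The log2 fold change for CBPAA against CBPWT with p53 was 1.52 (SE 0.72, adjusted p = 0.618), and 0.97 without replicate 1 of CBPAA p53-floxed. T cell genes were not high in replicate 1 of that group, with 11.1 TPM, and were 21.3 TPM in replicate 2. Myeloid genes summed to more in both of these mice than in any CBPWT p53-floxed mouse, where the highest sum was 15.3 TPM. In replicate 3 of CBPAA p53-floxed they summed to 11.2 TPM. The highest myeloid sum of the 12 libraries, 28.5 TPM, was in CBPAA p53ΔIEC replicate 1, where Cxcl10 was 0.557 CPM. The part of T cells and myeloid cells in the Cxcl10 values was not tested.

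**Figure D5:**
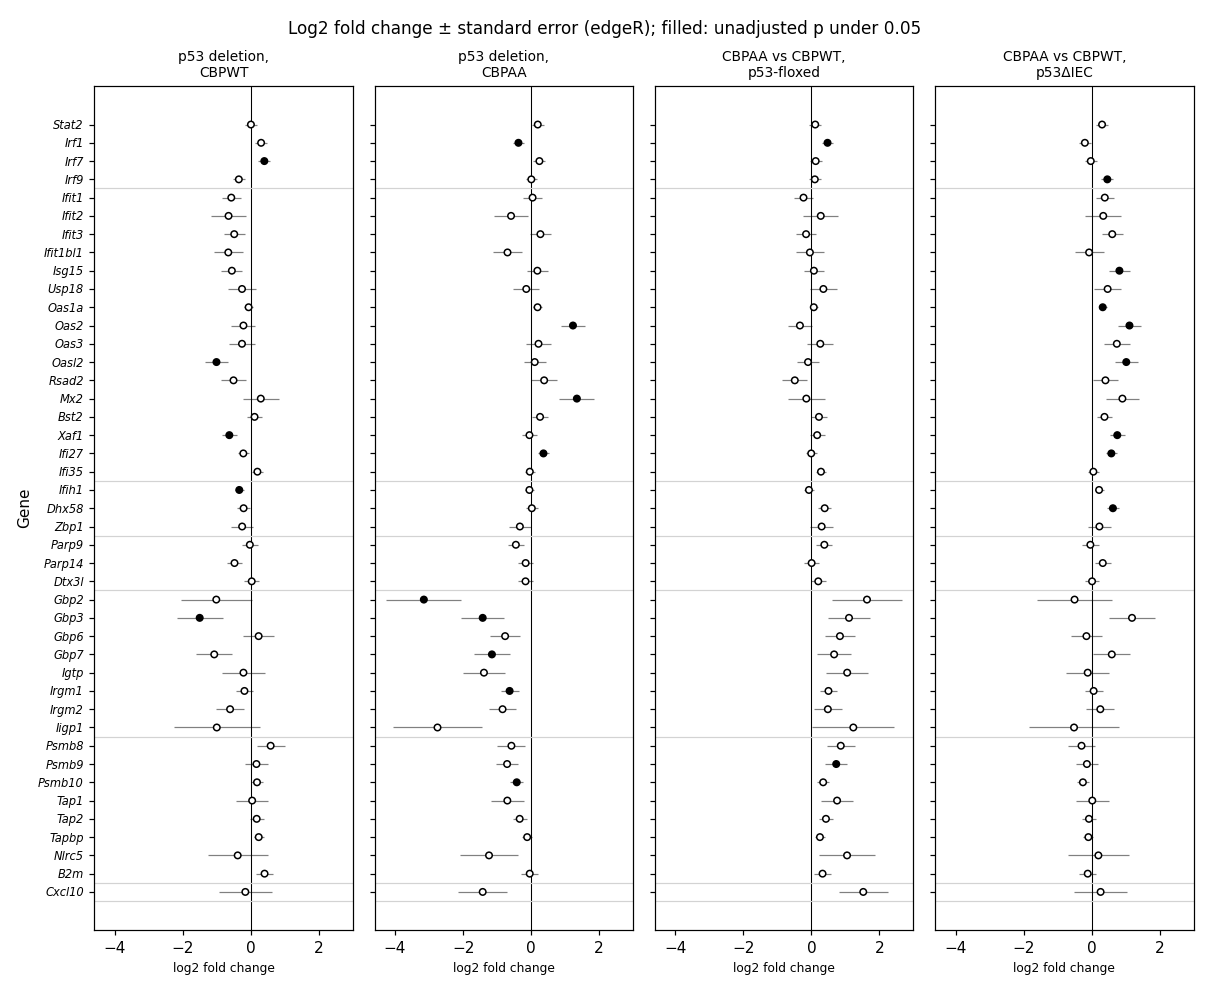
Log2 fold change (horizontal axis) with standard error (lines) of the 43 genes in the 4 comparisons of 2 groups, from edgeR. Filled points have an unadjusted p under 0.05, and none has an adjusted p under 0.05. Filled points number 5 for p53 deletion in CBPWT, 9 for p53 deletion in CBPAA, 2 for CBPAA against CBPWT with p53 and 8 for CBPAA against CBPWT without p53, and those 8 all lie to the right of 0.

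In CBPAA against CBPWT crypts with p53, 34 of 43 genes were higher (52.0% of all genes tested) with a median log2 fold change of 0.28, 2 had an unadjusted p under 0.05 and both were higher (3.86% of all genes higher and 4.18% lower), and this rested on CBPAA p53-floxed replicate 1, without which 20 of 43 were higher and the median was -0.09. Without p53, 29 of 43 were higher with a median of 0.26, and with any single library left out the median lay between 0.03 and 0.56. The number of the 43 genes with an unadjusted p under 0.05 in the higher direction then lay between 5 and 13. The share of all genes tested lay between 1.38% and 2.9%. The lowest median was that without CBPWT p53ΔIEC replicate 2, the lowest of the 12 libraries for 22 of the 43 genes, where 23 of 43 were higher. By role, with all libraries, 15 of 16 effectors, 4 of 8 GTPases (median -0.03) and 2 of 8 class I genes (median -0.10) were higher in this comparison. The direction of the GTPases and class I genes changed without CBPWT p53ΔIEC replicate 1. In that fit all 16 effectors, all 8 GTPases and all 8 class I genes were higher in CBPAA p53ΔIEC than in CBPWT p53ΔIEC crypts.

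Averaged over the p53 states, 41 of 43 genes were higher in CBPAA crypts with a median of 0.29 (49.4% of all genes tested were higher, with a median of 0.00), 6 had an unadjusted p under 0.05 and all 6 were higher (1.42% of all genes higher and 1.15% lower). With 1 library left out, the lowest values were 36 of 43 higher and a median of 0.08, without CBPAA p53-floxed replicate 1. The number with an unadjusted p under 0.05 ranged from 2 without CBPWT p53-floxed replicate 1 (1.04% of all genes higher) to 17 without CBPWT p53ΔIEC replicate 1 (4.45%). The libraries' median deviation of the 43 genes had an SD of 0.31 within groups. The 43 genes come from the same mice and are not independent of each other. The smallest adjusted p was 1.00 in edgeR.

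p53 deletion in CBPWT crypts gave 14 of 43 genes higher (51.2% of all genes tested) and 29 lower, with a median of -0.22, 1 higher and 4 lower at an unadjusted p under 0.05 (12.6% and 8.28% of all genes), and 6 whose groups did not overlap, all lower (14.7% of all genes tested were lower and 16.1% higher without overlap). These 6 were Oasl2, Xaf1, Ifih1, Parp14, Gbp3 and Gbp7, a share close to that of all genes. With both libraries highest in small intestine genes left out, 36 of 43 were lower, the median was -0.47 and 11 had an unadjusted p under 0.05 in the lower direction, against 11.8% of all genes. In CBPAA crypts 15 of 43 were higher (52.2% of all genes) and 28 lower, with a median of -0.16, and 3 were higher and 6 lower at an unadjusted p under 0.05 (7.19% and 5.41% of all genes). Oas2 and Mx2 were higher and Parp9, Gbp2 and Psmb10 lower without overlap in CPM (7.86% and 7.18% of all genes), whereas in TPM 3 were higher without overlap (Oas2, Mx2 and Ifi27) and 0 lower. Without CBPAA p53-floxed replicate 1 the median was -0.00484. Averaged over the CBP genotypes, 10 of 43 were higher (51.6% of all genes), and 2 were higher and 6 lower at an unadjusted p under 0.05 (13.2% and 8.73% of all genes).

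The interaction asks whether the effect of p53 deletion differed between CBP genotypes. It was above 0 for 14 of 16 effectors (median 0.59) and below 0 for 7 of 8 GTPases (median -0.72) and 8 of 8 class I genes (median -0.67), where the median of all genes tested was -0.02 and 47.5% were above 0. An unadjusted p under 0.05 was found for Oas2, Oasl2, Ifi27, Irf1 and Psmb10, the first 3 above 0 (5.00% of all genes above 0 and 5.28% below), and the smallest adjusted p was 0.482. Without CBPAA p53-floxed replicate 1 the effector median was 0.79 with 15 of 16 above 0, the GTPase median was -0.27 with 3 of 8 above 0, and the class I median was -0.35 with 1 of 8 above 0. Without CBPWT p53ΔIEC replicate 1 the effector median was 0.80 with 15 of 16 above 0, the GTPase median was -0.04 with 4 of 8 above 0, and the class I median was -0.26 with 2 of 8 above 0. The interaction of Psmb10 was -0.33 without CBPWT p53ΔIEC replicate 1.

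Of 108 related interferon pathway genes that were listed beside the 43, 92 passed the filter on low counts. The cutoff was passed by 5 of them for p53 deletion in CBPWT crypts, all higher (3.15% of all genes tested passed), by 5 averaged over the CBP genotypes, 4 higher and 1 lower (3.50% of all genes), and by none in the other comparisons. In CBPWT crypts these were Ifitm2, Ifitm3, H2-Q7, Calr and Psmb5. Ifitm3, a membrane protein that blocks virus entry, rose by a log2 value of 0.86 (SE 0.18, adjusted p = 0.0329), and its relative Ifitm2 by 0.60 (SE 0.14, adjusted p = 0.0407). H2-Q7, a nonclassical class I gene, rose by a log2 value of 1.24 (SE 0.29, adjusted p = 0.0370), and its reads may be shared with other H2-Q genes. Psmb5, the constitutive proteasome subunit that Psmb8 replaces, rose by a log2 value of 0.59 (SE 0.14, adjusted p = 0.0405), while Psmb8 had 0.58 (SE 0.41) in the same comparison.

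Psmb5 was measured at 40.4, 34.6 and 37.0 CPM in CBPWT p53-floxed, 40.6, 53.5 and 45.0 in CBPAA p53-floxed, 55.0, 55.7 and 57.7 in CBPWT p53ΔIEC and 54.4, 52.1 and 37.5 in CBPAA p53ΔIEC. Its CBPWT p53ΔIEC mice lay above all CBPWT p53-floxed mice and close to each other, unlike Psmb8, where replicate 1 stood at 81.7 CPM and the others at 27.2 and 33.8 CPM. Ifitm3 was measured at 10.7, 10.3 and 10.9 CPM in CBPWT p53-floxed, 16.6, 13.9 and 12.7 in CBPAA p53-floxed, 22.6, 15.8 and 19.5 in CBPWT p53ΔIEC and 21.9, 17.4 and 13.7 in CBPAA p53ΔIEC. It was again higher in all 3 CBPWT p53ΔIEC mice than in all CBPWT p53-floxed mice. Calr, the endoplasmic reticulum chaperone calreticulin of the peptide loading complex, had a log2 difference of 0.65 (SE 0.16, adjusted p = 0.0413).

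Averaged over the CBP genotypes, Cgas, the cytosolic DNA sensor, rose with p53 deletion by 0.97 (SE 0.25, adjusted p = 0.0413) on the log2 scale. Cgas was measured at 2.69, 3.42 and 2.78 CPM in CBPWT p53-floxed, 4.68, 3.32 and 4.90 in CBPAA p53-floxed, 4.67, 7.16 and 10.2 in CBPWT p53ΔIEC and 8.01, 8.69 and 3.32 in CBPAA p53ΔIEC. It was low in CBPAA p53ΔIEC replicate 3, the mouse with 136 TPM of proliferation genes. Gbp5 fell, by a log2 value of -2.495 (SE 0.61, adjusted p = 0.0366), on 1 to 3 reads per library in CBPWT p53ΔIEC, 6 to 8 in CBPAA p53ΔIEC, 5 to 19 in CBPWT p53-floxed and 7 to 75 in CBPAA p53-floxed crypts, and its neighbours Gbp2, Gbp3 and Gbp7 lay in the same direction without passing the cutoff. H2-Q1 and H2-Q7 rose by 0.70 and 0.96 (adjusted p = 0.0307 and 0.0188). The count of 5 in CBPWT crypts was 0 without any 1 of the 3 CBPWT p53-floxed libraries or without CBPWT p53ΔIEC replicate 2 or 3, 2 without CBPAA p53-floxed replicate 3 or CBPAA p53ΔIEC replicate 2, and 8 without CBPWT p53ΔIEC replicate 1 or CBPAA p53ΔIEC replicate 3.

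For CBPAA against CBPWT without p53, 12 of the 92 related genes had an unadjusted p under 0.05 and all 12 were higher (1.81% of all genes tested were higher and 1.76% lower at that p), without passing the cutoff. They were Ikbke, Oas1b, Oas1g, Ifit3b, Ifi44, Rtp4, Ddx60, Trim30a, Ifi27l2a, Ifi27l2b, Sp100 and Gvin1. An excess in the higher direction was not limited to crypts without p53. With p53, 14 of the 92 were higher and 2 lower at that p (3.86% and 4.18% of all genes tested). Of those 14, 8 were class I genes. The median log2 fold change of the 92 was 0.14 with p53 and -0.04 without p53. Ifi44 had a log2 difference of 1.80 (SE 0.39, adjusted p = 0.985) and Ifi27l2a of 2.07 (SE 0.52, adjusted p = 0.985), while H2-K1 had -0.18 (SE 0.13) and H2-D1 -0.19 (SE 0.14).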

How the data were processed

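Colonic crypts of 12 mice were profiled by stranded, poly(A)-selected RNA sequencing, 3 mice in each of 4 groups taken from the sample labels. Per the labels and the submitters' processing notes, the authors used fastp 0.20.0, FastQC 0.11.9, HISAT2 2.1.0, SAMtools 1.9 and featureCounts (Subread 2.0.1) with GRCm38, and deposited raw counts per gene. The authors also deposited TPM values in the same table, made from the same reads by scaling to gene length and library size. The strand setting, the treatment of multi-mapped reads and the annotation release are not given in the sources used here, so reads shared by near-identical genes (Gbp, Oas1, Ifit and H2-Q genes) may be split or lost. The table also holds the authors' fold changes and adjusted p-values for 5 comparisons, which were not used.

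The counts as deposited were tested with edgeR 4.0.16 in R 4.3.3 (filterByExpr with a minimum count of 10, TMM, robust quasi-likelihood fit, 1 factor of 4 groups over all 12 libraries). This left 14610 of 55471 genes, over all of which p-values were adjusted by Benjamini-Hochberg. Genes were called at an adjusted p below 0.05 with an absolute log2 fold change over 0.5. TPM was used only to compare levels between genes, marker sums and, with limma 3.58.1, as an alternative on log2(TPM + 1) and log2(TPM + 0.1). DESeq2 1.42.0, its size factors, other count filters, a replicate block, fits to 2 groups and leaving out each library were further alternatives. Leaving out both libraries highest in small intestine genes, and the small intestine gene level as a covariate, were chosen after seeing the data. The edgeR fit and its contrasts were tested on simulated counts, and the motif search on short sequences with known answers. The other steps had no such test. Python 3.11.15 with matplotlib 3.10.9 made the plots.

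The 43 genes and all lists were chosen with earlier results of these data known. Of the 43 genes, values of every library are given for those called in any comparison and for up to 5 of each role with the smallest unadjusted p. Related genes are named where called, beside interferons, receptors, H2-K1 and H2-D1, and the 12 with an unadjusted p under 0.05 without p53 were named after their values were seen. Oas1a, Mx2, B2m, Iigp1, Nlrc5 and Tap1 were named after their values were seen. Limits from a count of 0 cover counting error only. 1 related gene is not reported here.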

Additional observations from a re-analysis of the deposited data

How the results depend on the processing

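The number of the 43 genes called stayed 0 in 147 of 158 recomputed counts. For p53 deletion in CBPWT crypts it was 1 in DESeq2 (Oasl2), 2 in edgeR on the 2 groups compared only (Oasl2 and Gbp7), 1 with both libraries highest in small intestine genes left out and 1 with the small intestine covariate (Xaf1 in both), and 0 to 3 with 1 library left out. For p53 deletion in CBPAA crypts it was 1 without both of those libraries and 1 with the covariate (Oas2 in both). These 2 fits called 1205 of 14844 and 534 of 14610 genes tested. Averaged over the CBP genotypes, the number of the 43 called was 2 in DESeq2 (Gbp2 and Gbp3) and 4 without both libraries (Gbp2, Xaf1, Iigp1 and Ifit1bl1). With 1 library left out it was 0 to 3. Over the 43 genes, the median log2 value for CBPAA against CBPWT with p53 ranged from -0.0886 (without CBPAA p53-floxed replicate 1) to 0.415, and for the interaction from -0.288 to 0.363 with 1 library left out and was 0.294 in limma on log2(TPM + 0.1). Related genes called numbered 11 in DESeq2 and 0 to 8 with 1 library left out for p53 deletion in CBPWT crypts, 1 and 0 to 2 in CBPAA crypts, and 0 to 12 with 1 library left out averaged over the genotypes. Of 563 recomputed values of named genes, 559 kept direction and side of the threshold. These values cover a single comparison per gene, that with its smallest unadjusted p, and none was called with all libraries. Other comparisons that crossed the cutoff lie outside this count. They include Oasl2, Xaf1, Gbp3 and Gbp7 for p53 deletion in CBPWT crypts, and Gbp2 and Iigp1 averaged over the genotypes. Dtx3l for CBPAA against CBPWT with p53 reversed to -0.14 without CBPAA p53-floxed replicate 1, and ranged up to 0.38 over the libraries left out. The cause of these moves was not tested. All genes called for p53 deletion in CBPWT crypts numbered 460 in edgeR, 865 in DESeq2, 6 and 11 in limma with pseudocounts of 1 and 0.1, 1370 without both libraries highest in small intestine genes, and 1 to 906 with 1 library left out. In CBPAA crypts they numbered 4, 69, 7, 6, 1205 and 1 to 326 in the same order. Averaged over the genotypes they numbered 511, 758, 132, 139, 1697 and 105 to 1073. The replicate numbers of the labels did not pair the mice: correlations of residuals of same-numbered samples ran from -0.526 to 0.548, with 3 of 18 over 0.1. With the replicate block, 0 of the 43 genes were called in any of the 7 comparisons, and all genes called for p53 deletion numbered 32 in CBPWT crypts, 2 in CBPAA crypts and 304 averaged over the genotypes. Genes at a few reads per library, such as Gbp5 and Mx2, are limited by depth.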
